A study of Mus musculus with 18 samples.

Results

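Newly made and pre-existing cytoplasmic mRNA were compared in RAW264.7, an established macrophage-like cell line from mouse, after 60, 90 and 120 min of labelling with 200 µM 4-thiouridine (4sU). The 3 libraries were the input RNA of experiment 1, taken from cleared cytoplasmic lysate at 1 library per time, out of 18 libraries in the series. The 0 min input library of the same experiment, from cells without 4sU, gave the background. All 4 groups were the same unmodified line with no other treatment named in the labels, and lysates contained cycloheximide. Genes were kept where they had a mean of at least 50 reads over the 3 labelled libraries, which left 8117 of the 11943 genes with any read. That filter used all reads of a gene and not its conversions.

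4sU enters cells, is built into RNA in place of uridine, and is converted chemically so that it is read as cytidine. Reads with a T-to-C conversion therefore come from molecules transcribed after the label was added, apart from a background also seen without label. Reads without one come from old molecules or from new molecules in which no 4sU was read. An mRNA with a short half-life is replaced by labelled copies quickly, whereas a stable mRNA pool keeps its old copies for many hours. In macrophages, transcripts for cytokines and for the regulators of inflammatory signalling are known for rapid decay, and transcripts for metabolic enzymes and ribosomal proteins for stability.

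Input libraries held 7933796, 7191235 and 6230562 reads at 60, 90 and 120 min, against 6567701 reads without label. The share of reads with at least 1 conversion was 3.91%, 5.20% and 8.07% in that order, and 0.289% without label. The 95% Wilson interval of this share in the library with fewest reads, that of 120 min, ran from 8.05% to 8.09%; such intervals cover counting error only. Of 13 macrophage markers, 12 had reads in the labelled libraries, 10 passed the read filter and 1 was at 0 in or absent from all 4 libraries. The summed level of the list was 6943 CPM without label (reads scaled to the library total) and 7554, 7718 and 8715 CPM at 60, 90 and 120 min. Of 28 markers of other cell types, 24 were at 0 in or absent from all 4 libraries, and the summed level of that list lay between 0.305 and 0.803 CPM. In bulk RNA, fewer cells of a type and less RNA per cell cannot be told apart. The labels do not say whether the lysates of the 3 times were separate cultures. The p-values rest on the spread between these libraries, which also differ in labelling time, and on a spread shared across genes. The main test left 2 residual degrees of freedom per gene, so its small p-values do not measure agreement between independent cultures.

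Conversions above the unlabelled library were seen across most of the transcriptome. At 120 min the Wilson interval of the converted share lay wholly above that of the unlabelled library in 6842 of 8117 genes, and it did so at all 3 times in 4713. In the other 1275 genes the 120 min interval overlapped the unlabelled one. By edgeR's quasi-likelihood test of the 3 labelled libraries against the unlabelled one, 5901 of 8117 genes (72.7%) had higher odds of conversion and 0 had lower odds, with 0 lower also at an unadjusted p under 0.05. That test rests on 1 unlabelled library, and its calls fell to 0 without the 90 min library. limma, with a pseudocount of 0.5, called 6697 higher. Cfp, the complement factor properdin, was among the most read genes that edgeR did not call. Cfp had 5 converted of 2640 reads without label and 20 of 3245, 31 of 2781 and 29 of 2585 reads at 60, 90 and 120 min.

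Relative labelling was then taken as the log2 odds of conversion of a gene against the library-wide odds, paired within each library. Of 8117 genes, 2543 (31.3%) were labelled above the library-wide odds and 2650 (32.6%) below, at a Benjamini-Hochberg adjusted p under 0.05 in edgeR's quasi-likelihood test over the 3 libraries. The called genes were sorted by size into 4 groups. The fast class held 853 genes at a log2 value of at least 2, and 1690 further genes lay above 0. The slow class held 1704 genes at -1 or lower, 946 further genes lay below 0, and 2924 genes were not called. These classes are defined by the labelling values themselves, so the values below describe them without a test.

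In the fast class the median converted share was 16.7% at 60 min, 25.8% at 90 min and 43.3% at 120 min. In the slow class it was 1.38%, 1.93% and 3.10%. The median of all genes was 3.41%, 4.80% and 8.37%. Fast genes gave 4.90%, 4.65% and 3.93% of all reads at the 3 times, and 23.5%, 23.8% and 19.5% of the converted reads. Slow genes gave 37.1%, 37.9% and 40.9% of all reads, and 14.8%, 14.7% and 16.3% of the converted reads. The 853 fast genes thus gave a larger part of the converted reads than of all reads, and the 1704 slow genes a smaller part.

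**Figure D1:**
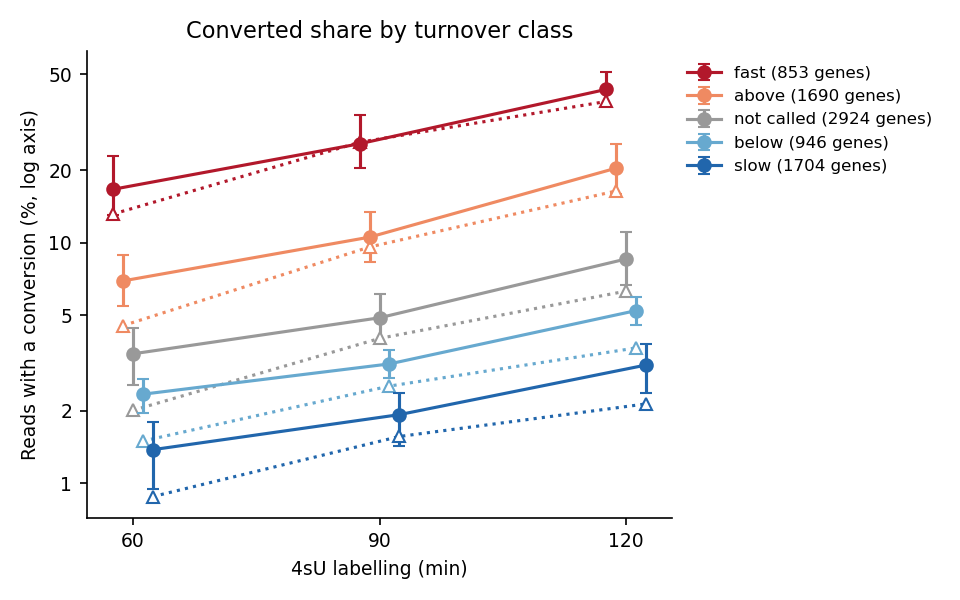
Median share of reads with a conversion (%, log axis) against 4sU labelling time (min) in the 5 turnover classes. Filled circles and solid lines are input libraries, with bars from the lower to the upper quartile of genes, and open triangles with dotted lines are medians of the ribosome footprint libraries of the same times. The classes keep their order at all 3 times in both materials, from 43.3% in the fast class to 3.10% in the slow class for input at 120 min.

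Among the 12 named genes with the highest relative labelling were Zfp472, Txnip, Fbxo5, Nfkbid and Tnf. Txnip, the thioredoxin-interacting protein that restrains glucose uptake, had 4 converted of 1293 reads without label, 628 of 1153 at 60 min (54.5%), 392 of 674 at 90 min (58.2%) and 636 of 888 at 120 min (71.6%, Wilson interval 68.6% to 74.5%). All 3 labelled values stood far above the unlabelled one, and more than 1 in 2 of its reads carried a conversion already at 60 min. Its relative labelling was 4.80 ± 0.18 (log2 odds ± SE, 3 libraries, edgeR adjusted p = 1.1e-34).

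Tnf, the tumour necrosis factor cytokine, had 1 converted of 383 reads without label and 189 of 357, 122 of 227 and 162 of 248 reads at 60, 90 and 120 min. Its converted share was thus 52.9% and 53.7% at the first 2 of those times and 65.3% at the last, and the Wilson intervals at 60 min (47.8% to 58.1%) and 120 min (59.2% to 71.0%) did not overlap. Relative labelling of Tnf was 4.54 ± 0.26. Nfkbia, the IκBα inhibitor that NF-κB itself induces, had 2 of 818 reads converted without label and 44.3%, 53.2% and 60.2% in time order, with a relative labelling of 4.26 ± 0.19. Nfkbid, a nuclear IκB protein, reached 64.9% at 120 min and 4.55 ± 0.32.

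Of the 17 tested NF-κB subunits and feedback inhibitors, 13 were called above the library and 0 below, with a median log2 of 1.66 against -0.07 over all genes. Birc3 and Traf2, which carry ubiquitin signals to NF-κB, lay at 2.50 and 2.27. The 15 tested immediate-early transcription factors had 14 called above and 0 below, with a median of 2.90, and 11 of them reached an estimated new share of at least 80% at 120 min. Klf10, a Krüppel-like factor, had 64 of 146, 41 of 79 and 66 of 96 reads converted (4.39 ± 0.32), against 0 of 186 without label. Junb, an AP-1 subunit whose gene model overlaps Prdx2, lay at 3.38 ± 0.21. All 9 tested signal feedback genes were called above, among them Rgs2, a brake on G-protein signalling, at 4.13 ± 0.31 and Spred1, an inhibitor of the Ras pathway, at 1.47 ± 0.11. These lists hold genes chosen with earlier results of the same data known, and their counts carry no test of the list.

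**Figure D2:**
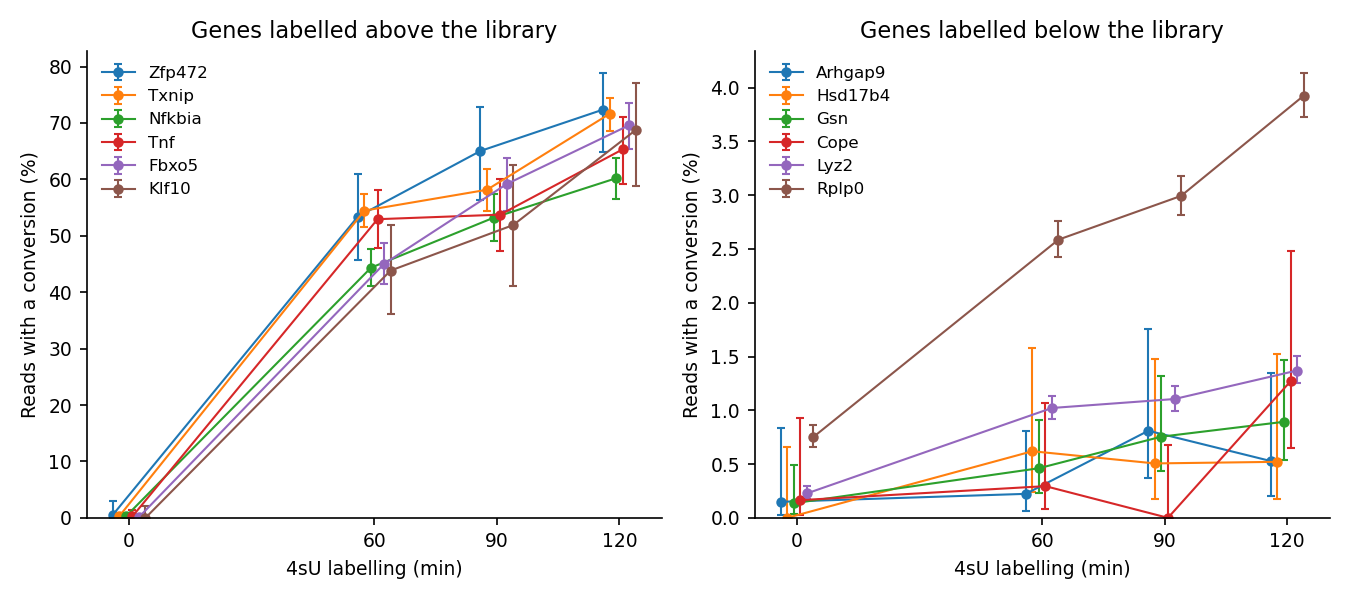
Share of reads with a conversion (%) against 4sU labelling time (min), with 95% Wilson intervals as bars, for 6 genes labelled above the library (left) and 6 below it (right). Points are single libraries, moved slightly sideways for legibility, and the vertical scales of the panels differ. Txnip reaches 71.6% and Nfkbia 60.2% at 120 min, whereas Lyz2 stays at 1.37% and Gsn at 0.893%.

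Several of these transcripts carry an AU-rich nonamer in the 3′UTR, the kind of element through which Tnf mRNA is known to be destabilised. The letters TTATTTATT were searched on the transcript strand of annotated 3′UTRs (GRCm38), with overlapping matches counted. They are printed in capitals within 30 bases, 5′ to 3′, so that the matches can be compared between fast genes and a slow one.
Tnf, chr17:35199688-35199717, minus strand: tttgcacttaTTATTTATTATTTATTTATT
Nfkbia, chr12:55489607-55489636, minus strand: ggaccacgttTTATTTATTgtgcttttgat
Tiparp, chr3:65554880-65554909, plus strand: ttccacacaaTTATTTATTttgccctagtt
Trmt10c, chr16:56033712-56033741, minus strand: aaagttaataTTATTTATTtttaatcgatt
Mdm2, chr10:117688914-117688943, minus strand: ggcattgatgTTATTTATTtgcaaataaat
Atp6ap1, chrX:74304287-74304316, plus strand: ccctctctccTTATTTATTcttgcccctct
The whole 3′UTR of Tnf held 5 matches, of which 3 overlap in the stretch printed, and the other 5 genes held 1 each. Tiparp, an ADP-ribosyltransferase, lay at 4.37, Trmt10c, a mitochondrial tRNA methyltransferase subunit, at 4.17, and Mdm2, the ubiquitin ligase of p53, at 2.92. Atp6ap1, an accessory subunit of the vacuolar proton pump, carries the same letters and lay at -1.32 ± 0.23.

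Over all genes with a gene model, the nonamer was found in the 3′UTR of 522 of 7829 (6.67%). It was found in 96 of 802 fast genes (12.0%) and in 57 of 1666 slow genes (3.42%). 3′UTRs also differed in length: the median was 1280.5 bases in the fast class, 927 over all genes and 528.5 in the slow class, and a longer 3′UTR has more room for a match. Within 3′UTRs of more than 1000 and up to 2000 bases, 15.7% of fast, 7.38% of all and 5.15% of slow genes held the nonamer. Above 2000 bases the shares were 15.6% of fast, 14.2% of all and 9.70% of slow genes. A match is a run of letters and not a measured binding site.

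All 13 mRNAs encoded in mitochondrial DNA were called above the library, with a median relative labelling of 3.40 and a median estimated new share of 71.3% at 120 min. Their reads held more T positions, with a median of 8.35 per read against 6.63 over all genes. With T content as an offset, their median relative labelling was 3.14. These mRNAs make subunits of the respiratory chain and the ATP synthase inside mitochondria. The mt-Nd genes lay above the others. The 7 mt-Nd genes, subunits of complex I, had log2 values from 3.40 for mt-Nd1 to 4.00 for mt-Nd2, whereas mt-Co1, mt-Co2 and mt-Co3, subunits of cytochrome oxidase, lay at 1.76, 2.32 and 2.40, and mt-Cytb at 2.80. mt-Atp8 and mt-Atp6, subunits of the ATP synthase, lay at 2.50 and 2.17. mt-Nd3 had 2754 of 6974, 2722 of 5951 and 2943 of 5109 reads converted, against 29 of 6495 without label. mt-Co3 had 9714 of 56219, 11987 of 52794 and 13757 of 42897 reads converted, against 122 of 43652. The 2 genes did not overlap at any labelled time: the share of mt-Nd3 was 39.5%, 45.7% and 57.6%, and that of mt-Co3 17.3%, 22.7% and 32.1%. Apart from mt-Nd1, mt-Nd3, mt-Nd5 and mt-Co3, these members were chosen for naming once their values had been seen. The files do not state a strand for counting, and mt-Nd6 lies opposite mt-Nd5, so those values may be mixed.

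Most nuclear mRNAs for subunits of the same complexes lay below the library. Of 77 tested, 0 were called above and 70 below, with a median of -1.20 and a median new share of 5.90% at 120 min. Atp5c1 and Atp5b, subunits of the ATP synthase, lay at -2.01 ± 0.11 and -1.19 ± 0.07, and Cox4i1 of cytochrome oxidase, whose model overlaps Emc8, at -1.61 ± 0.11. The converted share of Atp5b was 0.165% without label and 1.90%, 2.23% and 3.64% at the 3 times. The remaining 7 nuclear genes were not called.

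Replication-dependent histone mRNAs, which are made in S phase and end in a stem-loop in place of a poly(A) tail, were called above the library in 52 of 53 tested genes and below in 0. When only reads with at least 2 conversions counted as converted, 37 were called above and 2 below (median 1.30). Histone reads held fewer T positions, with a median of 4.95 per read against 6.63 over all genes. With T content as an offset, all 53 were called above (median 2.03). The median relative labelling of the list was 1.67, and its median new share 32.1% at 60 min and 54.0% at 120 min. Hist4h4 had 659 of 4486, 623 of 3437 and 974 of 3169 reads converted, against 16 of 6077 without label. Hist1h1b, a linker histone, had converted shares of 10.8%, 14.4% and 21.3% (1.61 ± 0.08). Histone genes of a family are near-identical in sequence, so the reads of single members are uncertain.

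Genes named as numbered zinc finger proteins, mostly DNA-binding repressors, were called above in 102 of 119 tested and below in 2. The median was 2.51, 74 were in the fast class, and 49 reached an estimated new share of at least 80% at 120 min. Zfp472 had 1 converted of 188 reads without label and 86 of 161, 80 of 123 and 110 of 152 with label, which gave 4.92 ± 0.31, the highest value of any named gene. Zfp715 and Zfp62 lay at 4.24 and 3.73. The 2 members called below were Zfp692 at -1.40 and Zfp106 at -0.70, and DESeq2 called 1 below.

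Cell-cycle switch genes lay mostly above the library and DNA replication genes mostly below. Of 17 tested switch genes, 12 were called above and 1 below (median 2.01), with 0 below by DESeq2. The list also holds Mcl1, an anti-apoptotic protein known for rapid turnover and not itself a cell-cycle switch. Mcl1 had 359 of 1862, 273 of 1115 and 410 of 954 reads converted, which gave 2.74 ± 0.15. Ccne2, cyclin E2, whose model overlaps Ints8, lay at 2.47 ± 0.23, and Cdc6, a licensing factor of replication origins, at 2.12 ± 0.22. Fbxo5, the inhibitor of the mitotic ubiquitin ligase, had 45.0%, 59.2% and 69.6% of its reads converted, with a relative labelling of 4.58 ± 0.21. Of 34 tested DNA replication genes, 5 were called above and 21 below (median -0.58), among them Pola1 at -1.61 ± 0.17 and Rrm1 at -0.88 ± 0.11. Gins3 was the member labelled most, at 3.38 ± 0.29. The 30 mitosis genes were split, with 14 above and 4 below, beside 31.3% and 32.6% over all genes. Aurka, the spindle kinase, lay at 2.29 ± 0.19 and Top2a, the topoisomerase, at -0.82 ± 0.09.

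Metabolic and stress pathways held members on both sides. In the sterol pathway, 10 of 23 tested genes were called above and 3 below, beside 31.3% and 32.6% over all genes. Insig1, which retains Scap in the endoplasmic reticulum, had 4 converted of 609 reads without label and 138 of 710, 111 of 440 and 157 of 403 with label (2.68 ± 0.21). Scap, the sterol sensor that escorts SREBP, lay at -1.99 ± 0.21. Among 21 tested chaperones and regulators of the endoplasmic reticulum, 15 were called below, with Hsp90b1 at -1.73 ± 0.08 and Calr at -1.32 ± 0.08. The 4 called above (3 by DESeq2) were Herpud1 at 3.05, Xbp1 at 1.90, Ern1 at 0.99 and Hspa5 at 0.43, of which Xbp1 and Ern1 act in signalling of the unfolded protein response. Atf4, the factor of the integrated stress response, had 24.5%, 25.5% and 43.0% of reads converted (2.92 ± 0.12). Ppp1r15b, a phosphatase regulatory subunit in the same response, lay at 3.27 ± 0.19. In the heat-shock list, 5 of 15 were called above, near the share of 31.3% over all genes, and 8 below. Dnajb1 lay at 2.83 ± 0.24 and Hspa8 at 1.25 ± 0.07, against -0.89 ± 0.08 for Hspa9 of the mitochondrion.

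The splicing regulators were also mixed. Of 22 Clk kinases, L cyclins and SR factors, 13 were called above and 2 below (median 0.48), with Clk1 at 3.80 ± 0.28 and Ccnl1 at 3.75 ± 0.28. Of 24 heterogeneous nuclear ribonucleoproteins, 4 were called above and 11 below (median -0.48). Over all genes, 31.3% were called above and 32.6% below. Hnrnpul1 lay at -1.19 ± 0.14 and Hnrnpdl at 1.07 ± 0.13. Factors that bind AU-rich elements or remove poly(A) tails had 11 of 27 above and 6 below, with a list median of 0.29 against -0.07 over all genes. The number below was 2 by DESeq2 and 1 without the 90 min library, and the median was 0.05 with at least 200 reads. Members ran from -1.28 to 4.03. Within that list, Zfp36l2, which binds AU-rich elements, lay at 3.04 ± 0.26 and Btg1, which recruits deadenylases, at 2.63 ± 0.23.

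Macrophage genes covered nearly the whole range. Of 22 tested surface and identity genes, 9 were called above and 11 below. Tlr2, a receptor for bacterial lipopeptides, had 8 converted of 2119 reads without label and 615 of 2747, 567 of 2025 and 744 of 1495 with label, or 22.4%, 28.0% and 49.8%. Tlr4, the endotoxin receptor, had 16.6%, 25.1% and 51.4%, and relative labelling was 3.05 ± 0.13 for Tlr2 and 2.83 ± 0.20 for Tlr4. Lyz2, the macrophage lysozyme, had 56 of 24685 reads converted without label and 347 of 33974, 353 of 31954 and 452 of 32994 with label. Its shares of 1.02%, 1.10% and 1.37% lay above 0.227% without label and below the library at every time (-2.32 ± 0.08). Csf1r, the receptor for the growth factor CSF1, whose model overlaps Hmgxb3, and Tyrobp, an adaptor of activating receptors, lay at -1.10 ± 0.09 and -1.35 ± 0.12. Of 9 tested secreted mediators, 3 were called above and 2 below, near the 31.3% and 32.6% over all genes. They included the chemokine Ccl3 at 3.57 ± 0.30 and Spp1, osteopontin, at -1.92 ± 0.10. Of 19 tested interferon-stimulated genes, 9 were called above and 4 below, and of 11 p53 targets 6 and 3. The medians of the surface, mediator and interferon lists changed sign between processing settings, so only the counts and single genes are given for them.

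Among the 12 named genes with the lowest relative labelling were Msra, Arhgap9, Cope and Hsd17b4. Msra, a methionine sulfoxide reductase, had 0 converted of 92 reads without label and 0 of 100, 105 and 121 reads at the 3 times. A floor of 3 counts over the 326 reads allows a share of up to 0.920%, at least 6.04-fold lower than the library-wide 5.56% of the 3 libraries together. Msra was 1 of 4 genes with 0 converted reads in all 3 labelled input libraries. Its ribosome footprints did carry conversions, in 1.53% of 261, 1.00% of 300 and 1.78% of 338 reads at the 3 times. Without label, 0.248% of 404 footprint reads were converted. Arhgap9, a GTPase-activating protein whose model overlaps Gli1, had 1 converted of 671 reads without label and 2 of 897, 6 of 741 and 4 of 758 with label. All 3 labelled intervals overlapped the unlabelled one, so new copies were not detectable at this depth. Its relative labelling was -3.56 ± 0.33. Gsn, the actin-severing protein gelsolin, had 2 of 1474, then 8 of 1735, 12 of 1590 and 15 of 1680 reads converted (-3.10 ± 0.21). Hsd17b4, a peroxisomal enzyme, had 4 of 646, 3 of 593 and 3 of 576 (-3.42 ± 0.36), and Cope, a coatomer subunit, 2 of 679, 0 of 560 and 8 of 630.

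Abundant slow mRNAs gave much tighter values. Pkm, pyruvate kinase, had 143 converted of 68251 reads without label and 761 of 77394, 1031 of 68069 and 1642 of 71147 with label, or 0.983%, 1.51% and 2.31%. Relative labelling of Pkm was -1.92 ± 0.06. Ybx1, an RNA-binding protein with 1 named pseudogene, had 85 of 13525, 100 of 11772 and 170 of 11226 reads converted, against 15 of 12474 without label (-2.62 ± 0.09). Arpc1b, a subunit of the Arp2/3 complex that nucleates actin, whose model overlaps Pdap1, lay at -2.55 ± 0.08, and Capg, an actin-capping protein, at -2.22 ± 0.09.

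By list, 17 of 19 glycolytic genes were called below and 2 above (median -1.36). The 2 above were Hk2, an inducible hexokinase, at 1.92 and Slc2a1, the glucose carrier, at 0.83. Lysosomal hydrolases and membrane proteins had 27 of 36 below and 0 above (median -1.23), with Psap at -1.48 ± 0.11 and Lgmn at -1.67 ± 0.13. The vacuolar proton pump had 11 of 16 below and 0 above (median -0.94), with 6 below and 1 above when at least 2 conversions were required. Cytosolic ribosomal proteins had 73 of 77 below and 1 above, with a median of -1.03 and a median new share of 7.40% at 120 min. Rpl4 had converted shares of 1.66%, 2.11% and 3.12% (-1.36 ± 0.06). The 1 member above, Rpl7l1, a paralogue of Rpl7, lay at 1.11. Several ribosomal protein genes have named pseudogenes (Rpsa has 9), so their reads may be shared with copies.

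Other translation genes with a pyrimidine tract at the start of the mRNA had 23 of 26 below and 0 above, among them Eef1a1, the elongation factor, at -1.24 ± 0.05. All 7 tested TRiC chaperonin subunits were called below, with Cct8 at -1.54 ± 0.09, in a model that overlaps Usp16. Aminoacyl-tRNA synthetases had 18 of 20 below and 0 above (median -1.07), and proteasome subunits 31 of 37 below and 1 above. The latter was Psmd10 at 0.61, and 0 were called above without the 90 min or without the 120 min library. Actin and tubulin genes had 18 of 26 below and 3 above. Those 3 were tubulins, Tuba1a at 1.85, Tuba1c at 1.22 and Tubb4b at 0.63, whereas Actb, β-actin, lay at -1.22 ± 0.07. Serine and one-carbon enzymes had 7 of 11 below and 1 above, with 6 below and 0 above by DESeq2. Mitochondrial ribosomal proteins had 30 of 76 below and 14 above (median -0.38), unlike the cytosolic ones, though the difference between the lists was not tested. Upstream-ORF stress mRNAs had 7 of 14 above and 2 below (median 0.66), the Txnip and arrestin-domain list 3 of 5 above and 1 below (median 1.38), and Rab small GTPases 12 of 38 above and 10 below, near the shares of 31.3% and 32.6% over all genes. The single exceptions to a list's direction were picked out after their values had been seen; they are Hk2, Slc2a1, Rpl7l1, Psmd10, the 3 tubulins, the 4 genes of the endoplasmic reticulum, Zfp692 and Zfp106.

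**Figure D3:**
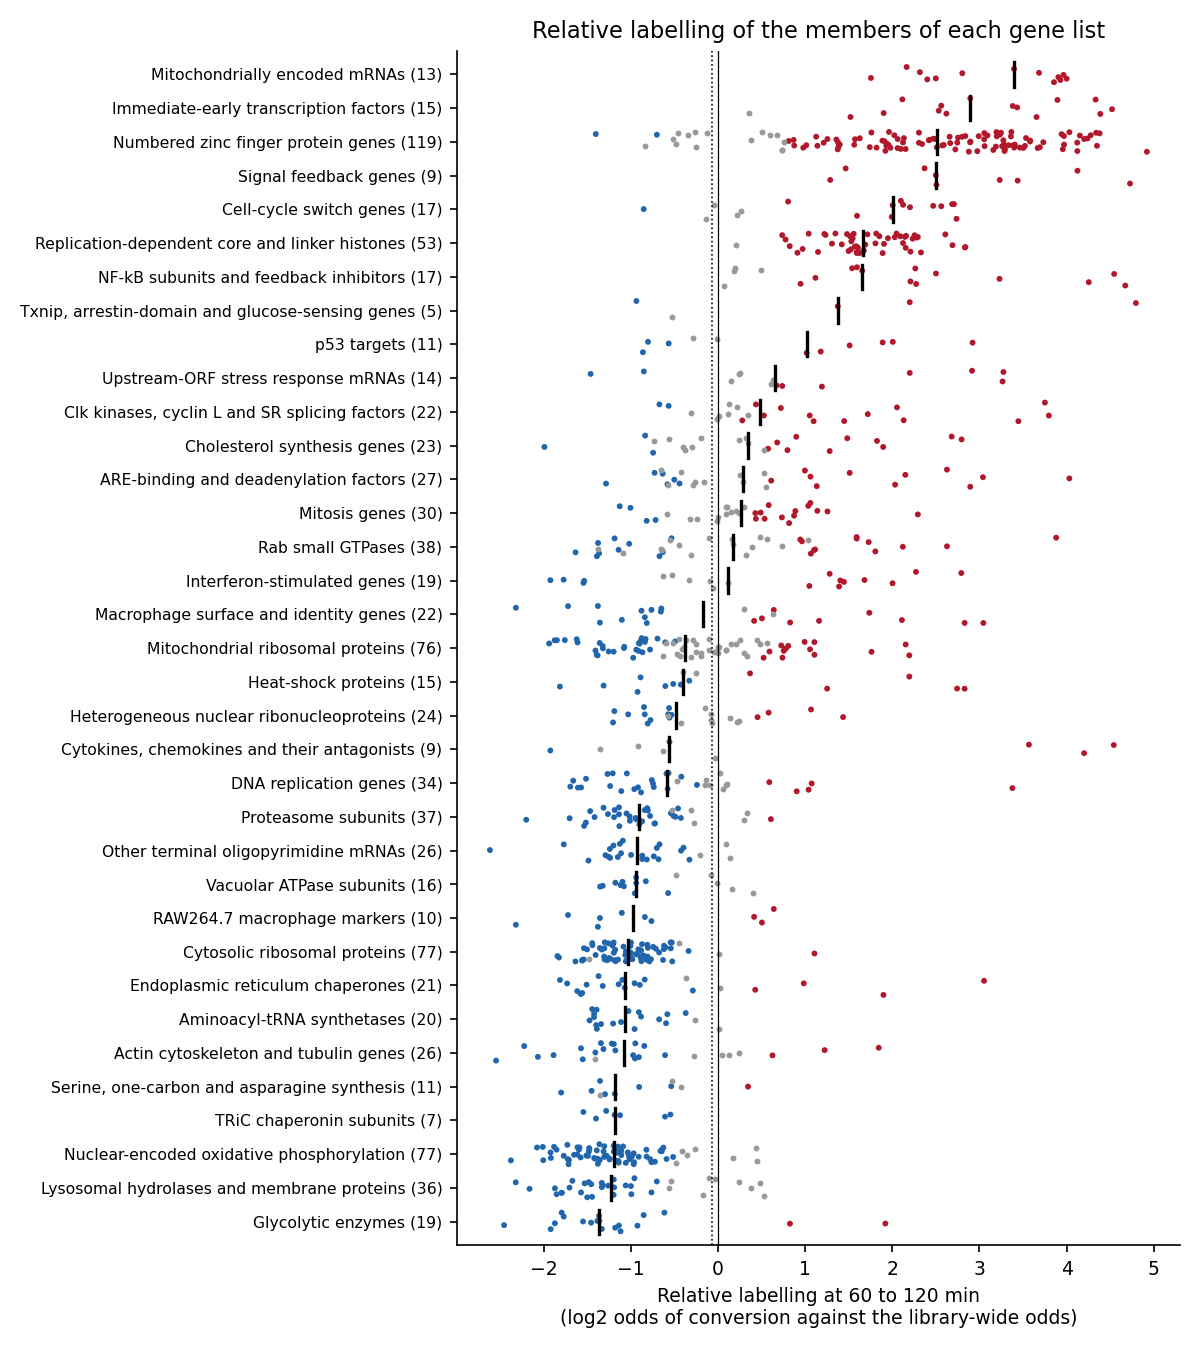
Relative labelling at 60 to 120 min (log2 odds of conversion against the library-wide odds) of each tested member of the gene lists, with the number tested in brackets. Red points were called above, blue points below and grey points not called, black bars are list medians and the dotted line is the median of all genes. Mitochondrially encoded mRNAs have the highest median, 3.40, and glycolytic enzymes the lowest, -1.36. With T content as an offset, medians were 3.14 for mitochondrially encoded mRNAs, 3.11 for signal feedback genes and 3.06 for immediate-early factors. In the same order, median new shares at 120 min were 71.3%, 80.4% and 93.2%.

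A converted share understates the share of new molecules, since a new read with few T positions may carry no conversion. The estimated new share was obtained from a mixture of old reads, which convert as in the unlabelled library, and new reads, which convert at 1 rate per T position in each library. That rate was 9.54% at 60 min, 9.55% at 90 min and 12.3% at 120 min, and the background was 0.0452%. Over whole libraries the new share was 7.83%, 10.4% and 14.1%. The median gene had 6.8%, 9.6% and 14.8%. Medians of the fast class were 35.8%, 55.6% and 79.8% at the 3 times, those of the slow class 2.4%, 3.5% and 5.1%.

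Near saturation, taken as an estimated new share of at least 80%, stood 44 genes at 60 min, 152 at 90 min and 433 at 120 min, and 42 were so at all 3 times. Of the 433, 423 belonged to the fast class, and 171 had a lower 95% bound of at least 80%. Txnip, Tnf, Nfkbia, Nfkbid and Zfp472 were estimated at 100% at all 3 times. Lower bounds for Txnip were 98.8% at 60 min and 99.4% at 120 min, and for Tnf 97.7% and 97.3%. These bounds, and those of the 171 genes, hold the library rate fixed and leave out any error in it. An estimate of 100% is the top of the scale, and above it a rise in converted share, as in these genes from 60 to 120 min, can no longer be read as a rise in new share. Other members reached the limit later: Phf23, a PHD finger protein, was estimated at 44.2%, 81.4% and 100%, Topors, an E3 ligase whose model overlaps Smim27, at 71.6%, 94.4% and 100%, and Trmt10c at 79.4%, 94.6% and 100%. mt-Nd3 lay at 76.5%, 88.1% and 93.5%.

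The estimate depends on the conversion rate assumed for new reads. With the 60 min rate used at every time, 687 genes were near saturation at 120 min in place of 433. When a rate was fitted for each gene with at least 200 reads, 67 of 4773 genes were near saturation, against 82 of the same genes by the library rate, and 55 were shared. The rates fitted at 120 min were 19% per T position for Txnip, 16.5% for Nfkbia and 18.5% for Tnf. All 3 lay above the library rate of 12.3%, so the library rate was too low for these genes. Under fitted rates Txnip was at 97.0%, Nfkbia at 98.0% and Tnf at 95.0%. Gpr183, a chemotactic receptor whose model overlaps Ubac2, went from 100% to 92.0%.

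**Figure D4:**
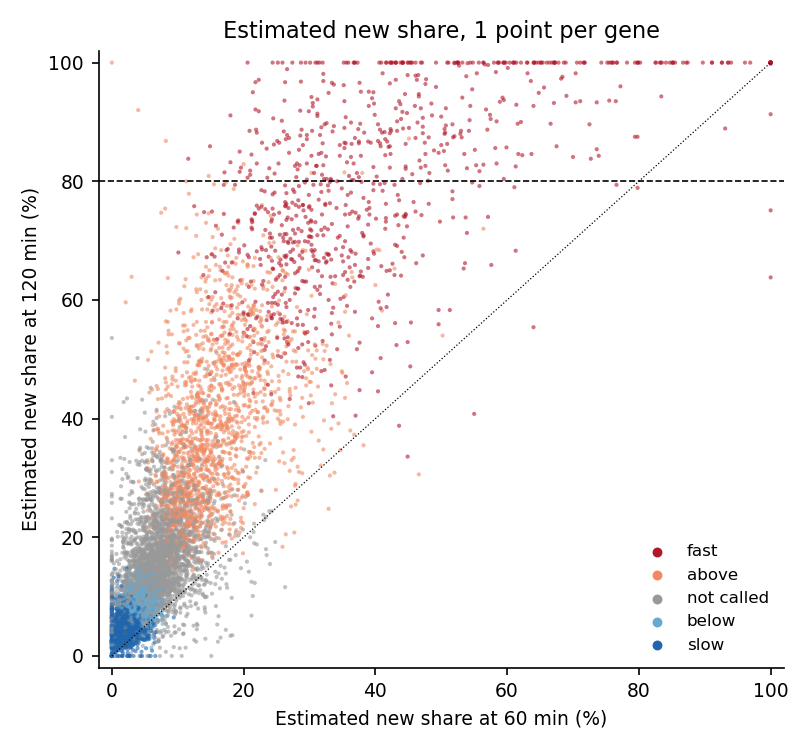
Estimated new share at 120 min (%) against that at 60 min (%), with 1 point per gene coloured by turnover class; the dashed line marks 80% and the dotted line equal values. The 433 genes at 80% or more at 120 min are nearly all fast (423), and slow genes lie near the origin.

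Relative labelling also changed with time for a small share of genes. Relative to the library, 284 genes (3.5%) gained labelling per hour from 60 to 120 min and 7 (0.0862%) lost it, in edgeR's quasi-likelihood test with 1 residual degree of freedom per gene. The median gene gained 0.35 log2 per hour on this scale, and with each library centred on its median gene the counts were 53 gained and 24 lost. DESeq2 called 0 gained and 2 lost, and limma with a pseudocount of 0.5 called 0 and 0. Gtpbp3, a mitochondrial tRNA-modifying GTPase whose model overlaps Plvap, had 0 of 311 reads converted at 60 min, 16 of 292 at 90 min and 42 of 283 at 120 min, against 0 of 278 without label. Its intervals at 60 and 120 min did not overlap. Akirin2, a nuclear factor in inflammatory transcription, had 7 of 184, 21 of 103 and 32 of 78 (2.80 per hour, adjusted p = 0.0029). Tlr4 gained 1.30 per hour (adjusted p = 0.0028), and Ccne2 1.64 (adjusted p = 0.00037). Lyz2 had a fitted change of -0.68 per hour (adjusted p = 0.0065), and Rplp0, a ribosomal stalk protein with 1 named pseudogene, one of -0.49 (adjusted p = 0.047).

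Against the 20 and 40 min libraries of the same experiment, 78 genes (0.961%) had higher relative labelling at 60 to 120 min and 19 (0.234%) lower, again by edgeR's quasi-likelihood test. The median gene was 0.43 higher on this scale, and with median centring the counts were 84 and 71. Zfp292, a zinc finger protein, had 9 of 630 and 33 of 595 reads converted at 20 and 40 min and 121 of 631, 123 of 400 and 121 of 229 later (difference 1.89 ± 0.41, adjusted p = 0.0094). Gmip, a GTPase-activating protein, had 0 converted of 611 and 0 of 518 reads early and 8 of 680, 30 of 676 and 49 of 533 later; no fold is given against 0. Mier2 had 0 of 345 and 2 of 277 early and 19 of 271, 41 of 186 and 46 of 125 later. Among the lower genes were Lyz2 (-0.85 ± 0.18, adjusted p = 0.0066), Gsn (-1.78 ± 0.46, adjusted p = 0.031) and Spp1 (-0.93 ± 0.23, adjusted p = 0.018). These are slow genes, and the slow class lay near the background early. Its median converted share was 0.336% at 20 min, against 0.179% without label. With the library-wide background taken off, 91 genes were called higher and 16 lower. Without the 20 min library 0 genes were called higher and 0 lower, and without the 90 min library 5 and 1. The counts were 182 and 84 without the 40 min library, 292 and 48 without the 60 min library, and 15 and 3 without the 120 min library.

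The classes also differed in the structure of their gene models. Median exon number was 5 in the fast class, 10 over all genes and 11 in the slow class. Genes with 1 exon made up 8.60% of the fast class, 1.80% of all genes and 0.0600% of the slow class. Of the 141 genes with 1 exon, 125 were called above and 4 below (median 1.95), and of 217 genes with 2 exons 165 and 9. Among 3710 genes with more than 10 exons, 838 were called above and 1432 below (median -0.28). Without histone and mitochondrial genes, 64 of 78 genes with 1 exon were called above and 4 below. Across 7829 genes, Spearman's rank correlation of relative labelling with exon number was -0.24 and with 3′UTR length 0.23; these describe genes, which share the same libraries.

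**Figure D5:**
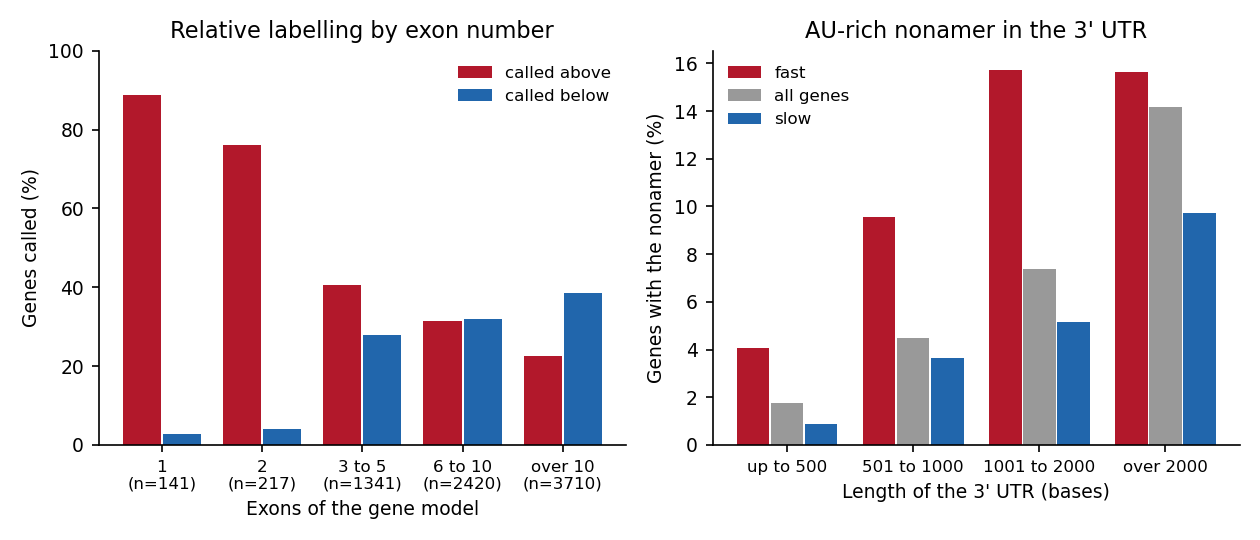
Left, share of genes called above or below the library-wide labelling (%) by exon number of the gene model, with the number of genes under each pair of bars. Right, share of genes with the nonamer TTATTTATT in the 3′UTR (%) by 3′UTR length for fast, all and slow genes. Genes with 1 exon are mostly called above (125 of 141), and the nonamer is more frequent in the fast than in the slow class in each length range.

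The number of T positions per read, which sets the chance of a conversion, was close to equal between classes, with medians of 6.60 in the fast and 6.63 in the slow class. An expectation from the T content of each gene's reads, used as an offset, kept the direction of 5192 of the 5193 called genes. Read depth differed more: the median of mean reads was 138.33 in the fast and 632.67 in the slow class, so the shares of single fast genes are less precise. The total level moved with labelling as well. Between the unlabelled and the 120 min library the median change in CPM was -0.72 log2 in the fast class, where 811 of 853 genes were lower, and 0.14 in the slow class, where 391 of 1704 were lower. Fast genes gave 5.52% of all reads without label and 5.45%, 5.44%, 4.90%, 4.65% and 3.93% at 20, 40, 60, 90 and 120 min. Over 8117 genes Spearman's rank correlation of relative labelling with the change in CPM was -0.66, and both share the 120 min library. Its part in the labelling values was not tested.

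Libraries that took no part in forming the classes gave the same order of fast and slow genes. In experiment 2, which covers shorter labelling, the median converted share at 40 min was 6.81% for fast and 0.725% for slow genes, around a library-wide 1.99%. There 842 of 853 fast genes lay above the library-wide share and 1686 of 1704 slow genes below it. Of the 2924 genes not called, 2093 also lay below it, and the median of all genes was 1.52%. At 20 min of experiment 2 the figures were 693 of 853 and 1639 of 1704, around 0.813%. The median of all genes was 0.500% there, and 2387 of the 2924 genes not called lay below the library-wide share. So did 1063 of the 1690 genes called above but not fast, so lying below it was common outside the slow class too. In ribosome footprints, which came from the same lysates as the input, all 853 fast genes lay above the library-wide 5.54% at 120 min, with a median of 38.6%. Of the slow genes, 1669 of 1704 lay below it, with a median of 2.14%. Of the 2924 genes not called, 1729 lay above it and 1195 below. Txnip and Tnf had 61.8% and 55.7% of footprint reads converted at 120 min, and Lyz2 1.14%.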

How the data were processed

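The deposited values are raw read counts per gene and library, split by T positions per read (0 to 20) and T-to-C conversions (0 to 3); this reading of the columns was inferred from their names and values. The authors aligned reads with Bowtie 0.12.8 to mm10, per the submitters' processing notes. Counting program, strand, counted region, allowed mismatches: not given in the sources used here. RNA fragments of 25 to 35 nt were taken after ribosomal RNA depletion, per the labels' protocols.

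Relative labelling used edgeR 4.0.16 (R 4.3.3), with converted and unconverted counts as a pair of columns per library, a term per library, column totals as library sizes and a filter at 50 mean reads. SEs come from the same fit. The other tests were interactions in the same layout. Two-sided p-values were adjusted over 8117 genes by Benjamini-Hochberg, with calls under 0.05. DESeq2 1.42.0, limma 3.58.1 (pseudocounts 0.5 and 2), other filters, centring, background and T-content corrections, and each library left out, were alternatives. The scripts were tested on simulated data. Gene models came from the GRCm38 annotation for 7829 genes. New shares were estimated by maximum likelihood.

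The genes and lists were chosen with earlier results of these data known. Named genes had a mean of at least 100 reads and under 1% conversion without label. They were the 12 highest and 12 lowest in relative labelling, and the 8 highest and lowest in the other comparisons. Also taken were up to 4 per list by adjusted p and the 12 nearest saturation. The last group was the 6 most read genes that edgeR did not call above the unlabelled library. RIKEN clones, predicted genes and pseudogenes were not named, and not all qualifying genes are. Results of a few genes are not reported here.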

Additional observations from a re-analysis of the deposited data

Results flagged for a closer look

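Relative labelling differed between early (20 and 40 min) and late (60 to 120 min) libraries of the same experiment, by a test of the difference itself, in 78 genes that were higher late and 19 that were lower. These numbers were singled out because the same contrast, converted against unconverted reads, gave different values at the 2 sets of times. Each time has 1 library, and the counts ranged from 0 to 292 higher and from 0 to 84 lower as single libraries were left out.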

How the results depend on the processing

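Depth limits single genes: the median of mean reads was 138.33 in the fast and 632.67 in the slow class. Each time has 1 library and the trend has 1 residual degree of freedom, so its libraries could not be left out in turn. No paired analysis was possible because every labelling time of experiment 1 has 1 library, so a block by replicate number would hold all libraries compared. Converted and unconverted reads were paired within each library in every fit. The cause of each shift below was not tested beyond what the setting itself changes.

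With a mean of at least 200 reads, which tests fewer genes, relative labelling called 1316 genes above (2543 in the report) and 289 in the fast class, which held 1438 without a read filter (853 in the report). With libraries left out, genes above ranged from 2048 to 2596. Without label, 716 of the 8117 genes had over 1% converted reads. Leaving these out, a setting added after seeing the data, gave 2238 genes above, 2570 below, 723 fast and 1647 slow.
Labelled against unlabelled calls were 2447 with at least 2 conversions and ranged from 0 to 6211 with a library left out (5901 in the report).
Late against early, higher calls (78) were 9 by DESeq2, 0 by limma with a pseudocount of 0.5, 15 with at least 200 reads, 0 with at least 2 conversions, and 0 to 292 with a library left out. Lower calls (19) were 71 with median centring, 0 and 202 by limma with pseudocounts of 0.5 and 2, 3 with at least 200 reads, 0 with at least 2 conversions, and 0 to 84 with a library left out.
For the trend, gains (284) were 53 with median centring, 0 by DESeq2, 0 and 24 by limma, 1 with at least 2 conversions and 139 with background taken off. Losses (7) were 24, 2, 0 by limma with 0.5, 0 and 3 under the same settings.
Near saturation (433) became 687 with the 60 min rate at every time. The fitted rate per gene, chosen after seeing the data, gave 67 against 82.
For single named genes, relative labelling kept its call in 2555 of the values recomputed, lost the call in 8 and gained one in 12, and no value reversed. Many of these genes were chosen by their value or adjusted p in the same comparison. Their stability thus follows in part from that choice and does not extend to all genes. In the late comparison 107 values lost the call and 121 kept it, and in the trend 59 and 64.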
